A study of Homo sapiens with 2 samples.

Results

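Chromatin remodelers and the enzymes that methylate or acetylate histones were described in U937 cells with and without TWIST-1. U937 is an established human cell line with promonocytic properties, which the labels place under acute myeloid leukemia. The cells had received a pCDH1-based lentiviral vector, either empty (vector) or carrying TWIST-1 cDNA (TWIST-1), and cells positive for green fluorescent protein were sorted. RNA of each condition was hybridised to 1 Affymetrix Human Transcriptome Array 2.0, with no replicate, so no difference has an error or a p-value, and TWIST-1 cannot be told apart from any other difference between the cultures or the arrays. The group was fixed by name as 48 genes in 5 classes, namely SWI/SNF, CHD, ISWI/INO80, histone methyltransferases and acetyltransferases, and 45 of these 48 genes were measured among 22465 genes in all. A gene was measured where a row of the table carried its symbol alone, and the brightest row was used. CHD2 and EP300 were left out because their rows carried other symbols as well, and ASH1L had no listed row. The log2 ratio was taken as TWIST-1 minus vector, so a negative ratio means a lower value in TWIST-1-transduced cells.

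The wrapping of DNA around histones limits access to genes, and these proteins alter it in different ways. Remodelers use ATP to slide, evict or exchange nucleosomes. The SWI/SNF complexes open chromatin around a SMARCA2 or SMARCA4 motor, the ISWI motors SMARCA1 and SMARCA5 space nucleosomes, the INO80 family exchanges histone variants, and the CHD proteins join a motor to chromodomains that bind modified histone tails. Most histone lysine methyltransferases carry a SET domain and mark active or silent chromatin depending on the residue, whereas acetyltransferases loosen chromatin and create docking sites for bromodomains. Genes of several of these proteins are recurrently altered in myeloid leukemia, including the fusion partners KAT6A, CREBBP and NSD1.

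The targeted gene gave a weak check of the labels. TWIST1 had log2 values of 4.13 in the vector array and 4.34 in the TWIST-1 array, a log2 ratio of 0.21 that is short of 1.2-fold, the threshold in the study's methods and a log2 ratio of 0.26. Whether its probes lie within the introduced cDNA was not analysed here. Genes at least as bright as the median gene, whose mean log2 level was 5.19, are called bright here. Of 8 measured monocytic markers, 7 were bright, all but CSF1R. Of 7 measured markers of lymphoid and erythroid cells, 2 were, GATA1 and CD8A, so bright is a relative level and not a call of expression. Beside the deposited values, ratios were taken under loess scaling, which removes a trend of the ratio with brightness, and under repeated quantile scaling, which gives both arrays the same set of values. TWIST1 was not bright, and its ratio was 0.14 under loess scaling and 0.15 under repeated quantile scaling. The monocytic markers had a median ratio of -0.028 (0.017 under loess scaling), and the lysozyme gene LYZ was the single one past 1.2-fold, at -0.27 as deposited but short of it at -0.16 under loess scaling and -0.23 under repeated quantile scaling. Across all genes the median log2 ratio was 0.042, with 0.0035 among bright genes and 0.065 among dimmer ones.

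Among the chromatin genes, 4 were at least 1.2-fold lower in TWIST-1-transduced cells and none was at least 1.2-fold higher. The 4 were BAZ1A, CHD1, KAT2B and CHD9, which belong to 3 of the 5 classes. The share of all genes past the same threshold was 2.85% lower and 2.71% higher. Because 43 of the 45 members were bright, the shares among bright genes are nearer in kind, and these were 4.23% lower and 1.66% higher. The members' count of 4 in 45 is a small number, and its difference from these shares was not tested. A lower value can mean less of the transcript per cell or fewer cells that carry it, which bulk RNA cannot tell apart.

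**Figure D1:**
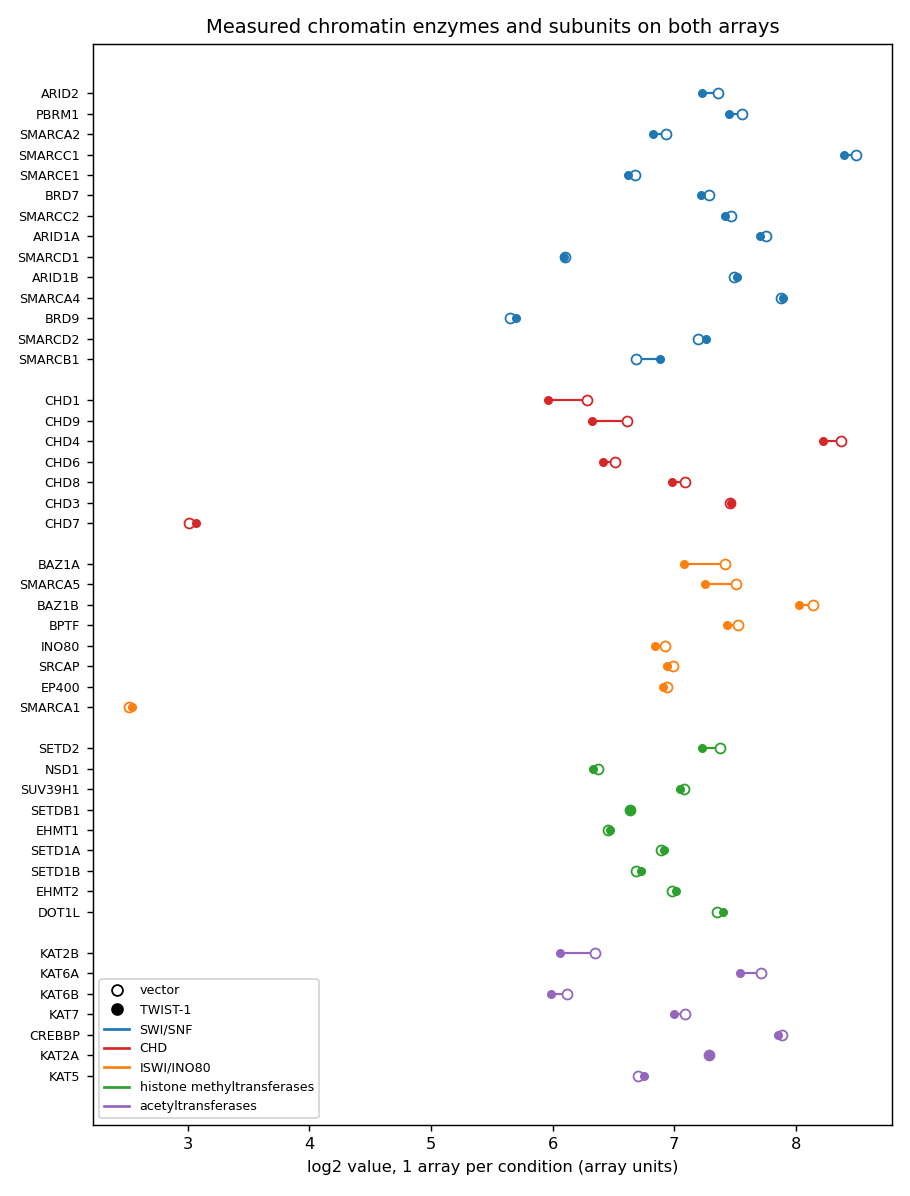
Log2 value of each of the 45 measured genes on the vector array (open circles) and on the TWIST-1 array (filled circles), grouped by class and coloured by it, with 1 array per condition. The longest lines to the left belong to BAZ1A, CHD1, KAT2B, CHD9 and SMARCA5, the longest to the right to SMARCB1, and CHD7 and SMARCA1 lie apart at log2 values near 3.01 and 2.52.

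The median log2 ratio of the 45 members was -0.047, against 0.042 over all genes, and 0.0035 over bright genes. The members and all genes lay closer together under loess scaling, with medians of -0.036 and 0.0052, and under repeated quantile scaling, with -0.019 and 0.012. Median centring sets the median gene to 0 and leaves distances as they are. Of the 45, 29 (64.4%) had a ratio below 0, compared with 34.8% of all genes and 46.5% of bright genes. Ratios more than 0.1 below 0 were found for 16 members, all of them bright, and for 24.6% of bright genes. SMARCB1 alone was more than 0.1 above 0, as were 22.3% of bright genes. As deposited, the members lay toward lower values by small amounts, and 41 single differences were under 1.2-fold. The sign of 27 members was negative under the deposited, centred, loess and repeated quantile scalings, that of 6 was positive under all 4, and for 12 it differed between scalings or was 0. Centring lowers every ratio by 0.042, which makes a negative sign under all 4 easier to reach than a positive one. The same count was not made over all genes, so it has no background to be read against.

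By class, the median ratio was -0.10 for CHD genes, -0.093 for acetyltransferases, -0.083 for ISWI/INO80 genes, -0.049 for SWI/SNF genes and 0.014 for histone methyltransferases. The first 4 medians were negative under each of the 4 scalings, but their size varied. Under repeated quantile scaling they were -0.094 for CHD genes, -0.061 for acetyltransferases, -0.044 for ISWI/INO80 genes and -0.0075 for SWI/SNF genes. The methyltransferase median was -0.028 under median centring, so its sign rests on the scaling. All 4 members past 1.2-fold came from the CHD, ISWI/INO80 and acetyltransferase classes, while 0 of 14 SWI/SNF and 0 of 9 methyltransferase genes passed it. Among bright genes 4.23% were at least 1.2-fold lower, so a count of 0 in lists this short says little. The classes hold 7 to 14 genes that are not replicates, their ranges overlapped, and their differences were not tested.

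**Figure D2:**
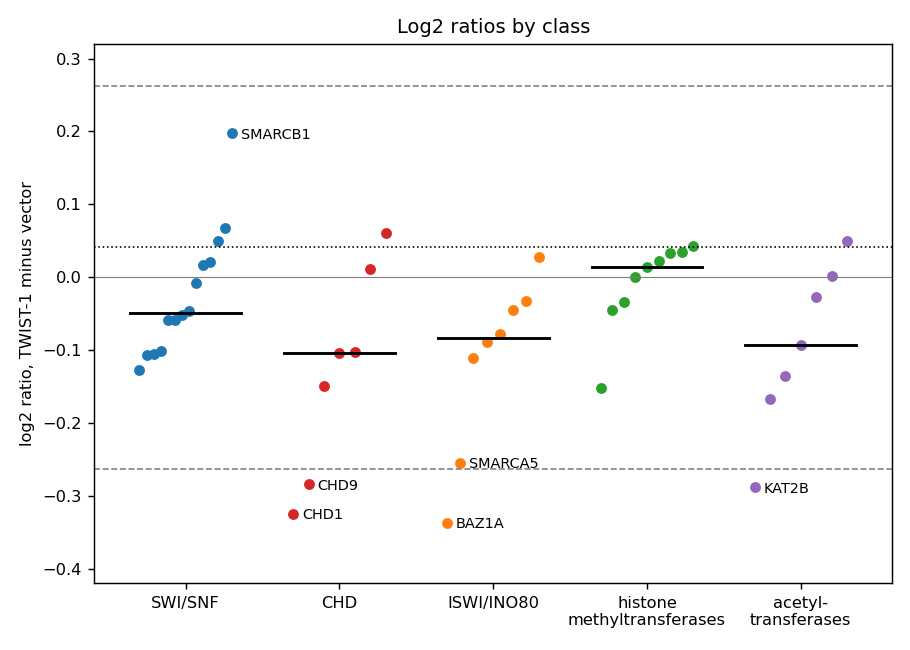
Log2 ratio (TWIST-1 minus vector) of each measured gene by class, with 1 point per gene, the class median as a black bar, the 1.2-fold thresholds as dashed lines and the median of all genes, 0.042, as a dotted line. The points past the lower threshold are CHD1, CHD9, BAZ1A and KAT2B, SMARCA5 lies just above it at -0.25, and the methyltransferases cluster near 0 except SETD2 at -0.15.

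Of the CHD family, CHD1 and CHD9 stood lowest. CHD1, a remodeler that reads histone H3 methylated at lysine 4 and travels with elongating RNA polymerase, had log2 values of 6.28 with vector and 5.96 with TWIST-1, a ratio of -0.32 or 1.25-fold lower. Among the 22465 genes, CHD1 ranked 276 from the lowest ratio. CHD9, a chromodomain helicase of the same subfamily as CHD6, CHD7 and CHD8, had values of 6.61 and 6.33, hence a ratio of -0.28 (1.22-fold lower).

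CHD4, the main motor of the NuRD deacetylase complex, had values of 8.37 and 8.22, hence a ratio of -0.15, short of the threshold. CHD6 and CHD8 both had a ratio of -0.10. CHD8, a regulator of beta-catenin target genes, had values of 7.09 and 6.98. The remaining members did not lie lower as deposited. CHD3, the alternative NuRD motor, differed by 0.011, and CHD7 had values of only 3.01 and 3.07 and a ratio of 0.061, at a level where all genes together tended to positive ratios. Thus 5 of the 7 measured CHD genes had a ratio below 0, and 2 of the 7 were past the threshold. The share below 0 was 46.5% over bright genes and 62.8% over the longer coding genes described below. Past the threshold were 4.23% of bright genes, and these differences were not tested.

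In the ISWI/INO80 class the 2 lowest ratios belonged to both subunits of the ACF chromatin assembly complex. BAZ1A, the accessory subunit ACF1 that pairs with SMARCA5 to space nucleosomes, had log2 values of 7.41 and 7.08, hence a ratio of -0.34 (1.26-fold lower), the lowest of all 45 members. SMARCA5, the ISWI motor SNF2H itself, had values of 7.51 and 7.25, hence a ratio of -0.25, or 1.19-fold lower. SMARCA5 was therefore just short of 1.2-fold as deposited, under loess scaling (-0.23) and under repeated quantile scaling (-0.20), and past it under median centring (-0.30). The other ISWI partners among the members had ratios of smaller size. RSF1, a partner of SMARCA5 outside the members, is given below. BAZ1B, which joins SMARCA5 in the WICH complex, had values of 8.14 and 8.03, hence a ratio of -0.11. BPTF, the large subunit of the NURF complex, had values of 7.53 and 7.44, hence a ratio of -0.089.

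The related motor SMARCA1 was dim at 2.52 and 2.55 and differed by 0.028, which became -0.021 under loess scaling. The 3 motors of the INO80 family differed little, with ratios of -0.077 for INO80, -0.045 for SRCAP, which deposits the variant histone H2A.Z, and -0.032 for EP400, the motor of the TIP60 complex. In all, 7 of 8 genes of the class had a ratio below 0, and the exception was SMARCA1. Below 0 were 46.5% of bright genes and 62.8% of the longer coding genes described below.

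The SWI/SNF genes lay closer to 0, with ratios between -0.13 and 0.20. The highest of all 45 members was SMARCB1, a core subunit lost in malignant rhabdoid tumors, with log2 values of 6.69 and 6.88, hence a ratio of 0.20 (1.15-fold higher). It was short of 1.2-fold under each scaling, at 0.16 centred, 0.20 under loess and 0.21 under repeated quantile scaling. SMARCD2, a core subunit required for granulocyte maturation, followed at 0.068. Of the 6 core subunits measured, the other 4 had ratios from -0.10 (SMARCC1) to -0.0078 (SMARCD1), with SMARCC2 at -0.052 and SMARCE1 at -0.059, so the core did not lie in a single direction.

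The lowest SWI/SNF ratios belonged to ARID2, with values of 7.36 and 7.23, hence a ratio of -0.13, and to PBRM1, with values of 7.56 and 7.45, hence a ratio of -0.11. Both define the PBAF form of the complex, and BRD7, another subunit of this form, had a ratio of -0.058. In the BAF form, the DNA-binding subunits ARID1A and ARID1B differed by -0.047 and 0.017, and BRD9, which marks the noncanonical form, by 0.050. The motors went apart by a small amount, SMARCA2 with values of 6.93 and 6.83 (-0.11) and SMARCA4 with values of 7.87 and 7.90 (0.021).

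As deposited, the histone methyltransferases had the class median closest to 0, while under repeated quantile scaling SWI/SNF (-0.0075) was closer than they were (0.0089). Of the 9 measured, 8 lay between -0.045 and 0.043. The exception was SETD2, which trimethylates lysine 36 of histone H3 during transcription, with log2 values of 7.38 and 7.23, hence a ratio of -0.15 (1.11-fold lower). NSD1, which dimethylates the same residue, had values of 6.38 and 6.33, hence a ratio of -0.045. The enzymes of the lysine 4 mark, SETD1A and SETD1B, differed by 0.022 and 0.034. The silencing enzymes of lysine 9 were also close to 0. SUV39H1 of pericentric heterochromatin had a ratio of -0.034, the partners EHMT1 and EHMT2 had 0.014 and 0.034, and SETDB1, which silences retroelements, had a value of 6.63 on both arrays. SETDB1 was 1 of 1177 genes, 5.24% of all, whose values were identical on both arrays in every deposited digit. EHMT2 lies in a region with alternative haplotypes and had 7 rows, which ranged from 0.018 to 0.034.

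DOT1L, which methylates lysine 79 without a SET domain and is a dependency of leukemias with KMT2A fusions, had values of 7.35 and 7.40 and the highest ratio of the class, 0.043. Without it, the median of the class was 0.0071.

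Among the acetyltransferases, KAT2B stood apart from its closest relative. KAT2B (PCAF), a coactivator that acetylates lysine 9 of histone H3, had log2 values of 6.35 with vector and 6.06 with TWIST-1, a ratio of -0.29 or 1.22-fold lower. KAT2A (GCN5), which can take its place in the SAGA and ATAC coactivator complexes, had a value of 7.28 on both arrays and a ratio of 0.0013.

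The MYST enzymes lay lower by less. KAT6A (MOZ), a leukemia fusion partner needed for hematopoietic stem cells in mice, had values of 7.71 and 7.54, hence a ratio of -0.17. Its relative KAT6B had values of 6.12 and 5.99, hence a ratio of -0.14. KAT7 (HBO1), which serves replication origins, had a ratio of -0.093, whereas KAT5 (TIP60), the enzyme that works with EP400, had the highest ratio of the class at 0.050. CREBBP, a general coactivator, had values of 7.88 and 7.86, hence a ratio of -0.027. Of the 7 measured acetyltransferase genes, 5 had a ratio below 0, beside 46.5% of bright genes and 62.8% of the longer coding genes described below.

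Many of these proteins come in pairs of paralogs that replace each other in a complex or share a domain plan, and 14 such pairs had both genes measured. As deposited, the ratios of a pair differed by more than 0.1 in 8 pairs and by 0.1 or less in 6, with a median size of 0.12. Pairs of unrelated genes were not counted alike, so these counts have no background to be read against. Among bright genes, single ratios were more than 0.1 below 0 for 24.6% and more than 0.1 above 0 for 22.3%. The SD of ratios between rows of 1 gene was 0.069 on these arrays, which covers differences between probe groups but not between cultures. It applies to a single ratio, and a difference between ratios has a wider spread. The widest pair was KAT2A and KAT2B, 0.29 apart as deposited, 0.33 under loess scaling and 0.36 under repeated quantile scaling. BAZ1A and BAZ1B were 0.23 apart as deposited and 0.25 under both of these scalings. SMARCA1 and SMARCA5 were 0.28 apart as deposited, but 0.21 under loess scaling and 0.18 under repeated quantile scaling, with SMARCA1 dim.

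CHD6 and CHD9 were 0.18 apart, and CHD3 and CHD4 0.16. SMARCA2 and SMARCA4 were 0.13 apart, and 0.17 under repeated quantile scaling. CHD7 and CHD8 were 0.16 apart, and BRD7 and BRD9 0.11, but these values were 0.095 and 0.046 under loess scaling. As deposited, the closest pairs were SETD1A and SETD1B, EHMT1 and EHMT2, and KAT6A and KAT6B, which were 0.011, 0.020 and 0.031 apart. SETD1A and SETD1B were also the closest under loess scaling (0.0040) and repeated quantile scaling (0.0063), but EHMT1 and EHMT2 came to 0.041 and 0.055, wider than SMARCC1 and SMARCC2 under loess scaling (0.026) and than BRD7 and BRD9 under repeated quantile scaling (0.019). Above these 3 pairs lay SMARCC1 and SMARCC2, ARID1A and ARID1B, and SMARCD1 and SMARCD2, at 0.049, 0.064 and 0.076. The last of these pairs passed 0.1 under other settings, at 0.12 under loess and 0.14 under repeated quantile scaling. In the 4 widest pairs, the gene with the lower ratio was also lower than its paralog under loess and repeated quantile scaling.

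**Figure D3:**
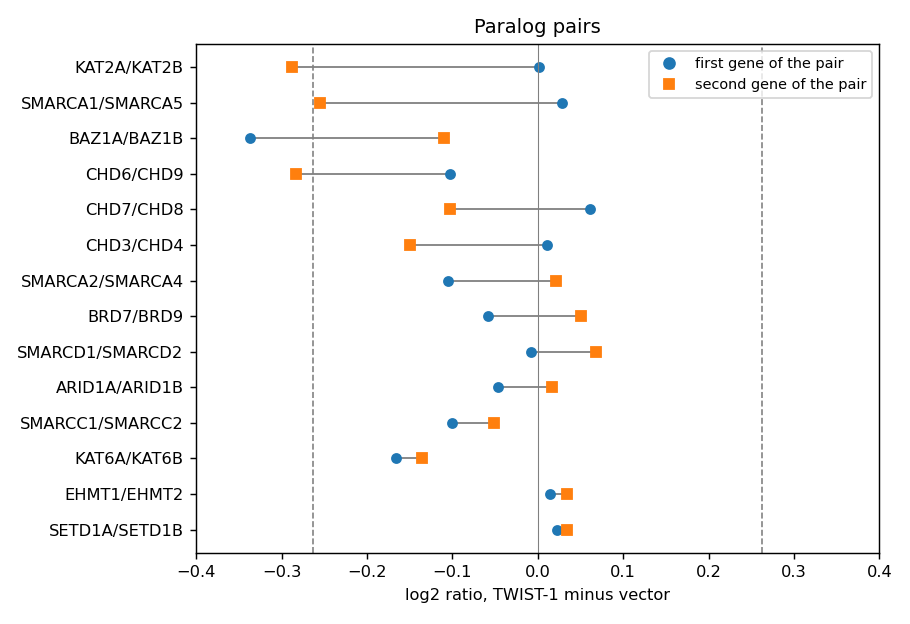
Log2 ratio (TWIST-1 minus vector) of both genes of each of 14 paralog pairs, ordered by the distance between them, with the first gene as a circle and the second as a square, and with the 1.2-fold thresholds as dashed lines. KAT2A and KAT2B lie farthest apart, at 0.0013 and -0.29, and SETD1A and SETD1B nearest, at 0.022 and 0.034.

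The promoters of the lower members are shown because TWIST-1 is a basic helix-loop-helix factor that binds E-boxes, with the letters CANNTG on both strands. RefSeq windows on GRCh38.p14 were found for 35 of the 45 members, and the 250 bases before the annotated start were searched. CHD1, CHD9 and KAT2B are printed as the lower members with a window, KAT2A as the paralog farthest from its partner, and SMARCB1 as the member with the highest ratio. All run 5′ to 3′ along the gene's strand, and capitals mark each E-box match.
CHD1, chr5:98929008-98929257, minus strand: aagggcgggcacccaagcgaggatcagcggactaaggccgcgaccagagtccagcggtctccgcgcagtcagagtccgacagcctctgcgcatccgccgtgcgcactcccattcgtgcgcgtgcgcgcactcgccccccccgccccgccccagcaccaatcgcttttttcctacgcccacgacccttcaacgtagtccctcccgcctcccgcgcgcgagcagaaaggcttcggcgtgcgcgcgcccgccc
CHD9, chr16:53054741-53054990, plus strand: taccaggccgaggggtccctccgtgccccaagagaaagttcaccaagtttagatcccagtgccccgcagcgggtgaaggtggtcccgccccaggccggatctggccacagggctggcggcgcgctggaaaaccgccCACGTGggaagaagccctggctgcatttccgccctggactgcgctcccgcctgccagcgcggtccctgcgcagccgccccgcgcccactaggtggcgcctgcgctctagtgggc
KAT2B, chr3:20040196-20040445, plus strand: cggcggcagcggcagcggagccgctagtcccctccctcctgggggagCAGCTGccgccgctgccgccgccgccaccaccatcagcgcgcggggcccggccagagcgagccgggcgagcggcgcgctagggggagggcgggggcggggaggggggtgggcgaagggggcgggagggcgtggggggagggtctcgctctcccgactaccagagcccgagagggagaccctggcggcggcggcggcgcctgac
KAT2A, chr17:42121368-42121617, minus strand: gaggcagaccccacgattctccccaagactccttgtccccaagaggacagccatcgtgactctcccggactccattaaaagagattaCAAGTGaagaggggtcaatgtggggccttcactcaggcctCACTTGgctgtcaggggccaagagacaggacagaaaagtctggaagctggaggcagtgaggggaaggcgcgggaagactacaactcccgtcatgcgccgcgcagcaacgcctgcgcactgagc
SMARCB1, chr22:23786716-23786965, plus strand: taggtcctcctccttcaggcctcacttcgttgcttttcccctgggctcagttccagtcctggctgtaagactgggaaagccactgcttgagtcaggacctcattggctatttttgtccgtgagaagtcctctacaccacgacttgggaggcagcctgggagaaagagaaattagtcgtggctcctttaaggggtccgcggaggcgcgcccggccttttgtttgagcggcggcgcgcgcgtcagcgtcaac

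In these windows, CHD9 had a single match, CACGTG starting 114 bases before the gene's start, KAT2B had CAGCTG, KAT2A had CAAGTG and CACTTG, and CHD1 and SMARCB1 had none. Of the 35 members' windows, 19 (54.3%) held at least 1 match, against 62.2% of 27305 promoter windows of the same length. The windows of the members had a median of 68% G and C and 22 CpG dinucleotides, against 58% and 11 over all windows. KAT2B had 80.8% G and C and 33 CpG, and KAT2A 58.8% and 11. Such differences were not particular to this pair. Among pairs with ratios 0.1 or less apart, ARID1A and ARID1B had 80.4% and 38.8% G and C. EHMT1 and EHMT2 had 78.8% and 63.2%, and SMARCD1 and SMARCD2 were nearer, at 70.4% and 65.6%. Letters in such a window are no evidence of binding, and none was measured here.

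Gene length moved with the ratio, and most of the bright members were long. Over 9695 protein-coding bright genes, sorted by the length of the gene in RefSeq into 5 equal length classes from 1 (shortest) to 5 (longest), the median ratio was 0.065 in class 1 (up to 8.14 kb), -0.045 in class 4 and -0.064 in class 5 (from 73.9 kb). The bright members tended to be longer than these coding genes, but 11 of them were in length classes 1 to 3. Of the 43 bright members, 22 were in length class 5 and 10 in class 4, and their median length was 75.0 kb against 25.6 kb over the coding genes.

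All 4 members past 1.2-fold lay in length class 5, from CHD1 at 75.0 kb to CHD9 at 273 kb. In that class the 22 members had a median ratio of -0.10. Over all its 1939 coding genes the median was -0.064, and 5.78% were at least 1.2-fold lower. Of the 22 members, 19 were below 0. In length classes 4 and 5 together, the median of the 32 members was -0.097 and that of the coding genes -0.056. Ratios below 0 were found there for 78.1% of the members and 62.8% of the coding genes. In length classes 1 to 3, the median of the 11 members was 0.011, none was past the threshold, and the coding genes had 0.036.

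Single members departed from the order of length. ARID1B was the longest at 435 kb with a ratio of 0.017, EHMT1 at 217 kb had 0.014, and SMARCA5 at 43.8 kb had -0.25. Across the 43 members, which share both arrays, Spearman's rho of length and ratio was -0.46, and across the coding genes -0.32, given as descriptions over genes that are not independent. Under loess scaling length class 5 had medians of -0.076 for members and -0.067 for coding genes. The part of gene length in the members' ratios was not tested.

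**Figure D4:**
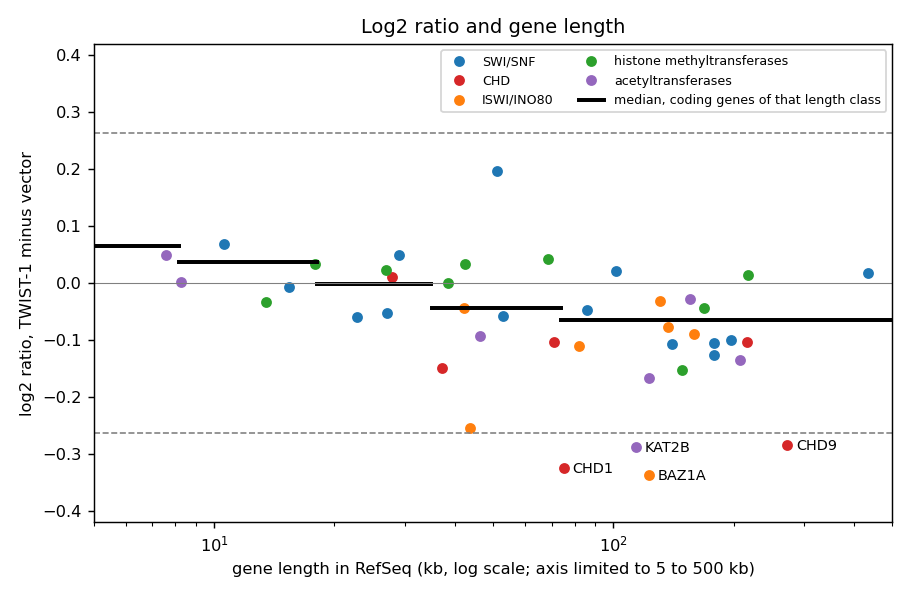
Log2 ratio (TWIST-1 minus vector) against gene length in kb on a log axis for the 43 bright members, 1 point per gene coloured by class, with the median ratio of protein-coding genes in each length class as black bars and the 1.2-fold thresholds as dashed lines. The bars step down from 0.065 to -0.064, and the 4 labelled genes lie below the bar of the longest class.

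Partner subunits and related enzymes outside the 48 were described from further lists of 180 genes, of which 176 were measured. Of these 176, 6 (3.41%) were at least 1.2-fold lower and none was higher, with a median ratio of -0.018, beside 4.23% of bright genes lower. SMARCAD1, an SNF2-type motor that keeps heterochromatin through replication, had log2 values of 5.62 and 5.32, hence a ratio of -0.30. SS18, a BAF subunit known from the fusion of synovial sarcoma, had values of 7.79 and 7.52, hence a ratio of -0.27, which was short of the threshold under loess scaling (-0.24) and under repeated quantile scaling (-0.22).

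The other 4 were SUZ12, a core subunit of Polycomb repressive complex 2, at -0.34, and the demethylase genes KDM1B (-0.31, but -0.26 and short of the threshold under repeated quantile scaling), KDM3A (-0.28) and JMJD1C (-0.27). The 8 listed ISWI partners had a median of -0.12 and 0 past the threshold. RSF1, which forms a remodeling complex with SMARCA5 and is named after its value was seen, had values of 6.64 and 6.40, hence a ratio of -0.24.

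The 11 other CHD and SNF2 motors measured had 1 lower, SMARCAD1, and a median of -0.10, which was -0.077 under loess scaling. The 12 NuRD partners of CHD3 and CHD4 had a median of -0.032, the 28 partners of INO80, SRCAP and EP400 one of -0.055, and the 15 further SWI/SNF subunits one of 0.019. Among 19 further SET-domain methyltransferases, which include the KMT2 family, the median was -0.023 and none passed the threshold. Nor did any of the 11 measured subunits of the SET1 complexes, whose median was -0.037. The 28 further acetyltransferases and partners had a median of 0.015, and 0 of them were past the threshold. Histone deacetylases, which remove the acetyl marks, had 15 genes measured with ratios from -0.19 to 0.16 and a median of 0.054. Jumonji and LSD demethylases had 3 of 25 lower and a median of -0.064, and Polycomb repressive complex 2 had 1 of 12 lower and a median of -0.077, beside 4 of 45 and -0.047 for the chromatin genes. These differences between lists were not tested.

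The calls moved little between scalings. BAZ1A, CHD1, KAT2B and CHD9 were at least 1.2-fold lower under the deposited, centred, loess and repeated quantile scalings, and SMARCA5 joined them under median centring. KAT2B ranged from -0.33 to -0.29 and CHD9 from -0.33 to -0.28 over these scalings. Adding 16 to the linear values before the ratio left 2 genes, BAZ1A at -0.30 and CHD1 at -0.26, while KAT2B and CHD9 both came to -0.24. No member reached 1.5-fold. The background moved more, from 641 genes lower and 609 higher as deposited to 1084 and 329 under median centring.

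**Figure D5:**
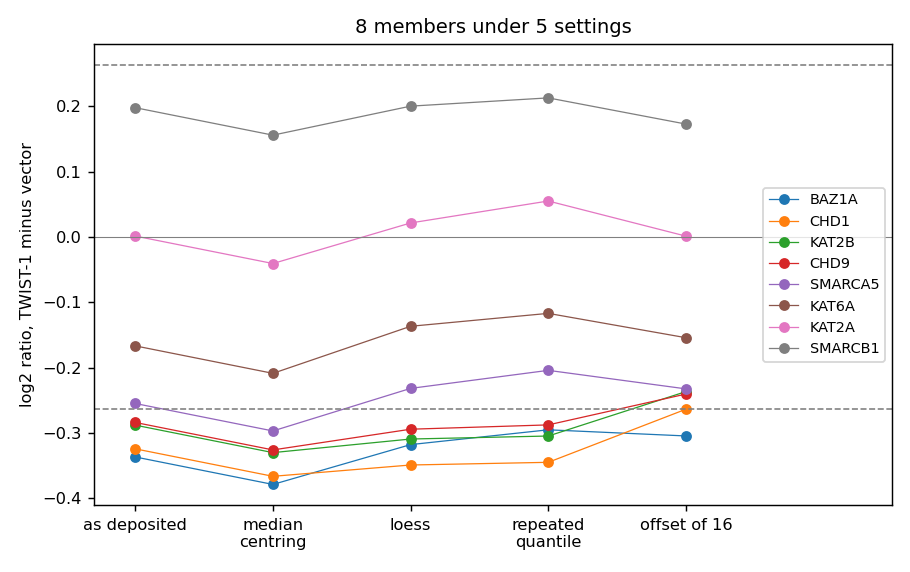
Log2 ratio (TWIST-1 minus vector) of 8 members as deposited, under median centring, loess scaling and repeated quantile scaling, and with an offset of 16, with the 1.2-fold thresholds as dashed lines and thin lines joining the points of a gene. BAZ1A, CHD1, KAT2B and CHD9 lie below the lower threshold in the first 4 settings, and KAT2B and CHD9 rise above it with the offset.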

How the data were processed

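RNA from U937 cells carrying empty vector or TWIST-1 was hybridised, 1 array for each. The deposited values are log2 expression, for which the study's methods name quantile normalization, and the processing notes name Affymetrix Expression Console. The 2 arrays did not share 1 set of values, with medians over all rows of 3.90 for vector and 3.97 for TWIST-1. For summarisation and background correction, the sources used here name no method. The values were used as deposited. Of 70523 rows, 23781 carried 1 gene symbol in the platform annotation, 1543 carried several and 45199 were not listed. Symbols were updated through RefSeq gene identifiers (GRCh38.p14) for 21497 rows. For the 479 genes with several rows the row with the highest mean was taken.

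A single array for each condition allowed no test. Genes were counted at 1.2-fold, beside the share of all genes counted alike. The members, lists and paralog pairs were chosen with earlier results of these data known. Values or ratios were given for every member past 1.2-fold, the 2 highest and 2 lowest of each class and both genes of each pair, and for other chromatin genes past 1.2-fold. The length classes and promoter windows were chosen after the ratios were seen. Alternatives were centring, loess (limma, span 0.7, 3 iterations), repeated quantile scaling, the mean of a gene's rows, bright genes only, an offset of 16 and 1.5-fold. Precision is limited by the number of arrays. The counting was tested on simulated data. R 4.3.3, limma 3.58.1, Python 3.11.15, numpy 2.4.6, pandas 2.3.3 and matplotlib 3.10.9 were used.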

Additional observations from a re-analysis of the deposited data

How the results depend on the processing

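No paired analysis was possible because each condition had 1 array. No replicate could be left out for the same reason. Each member's own ratio moved by less than 0.069, the SD of log2 ratios between rows of 1 gene, under the 5 alternatives run for it. Centring moves every ratio by 0.042, so it could not exceed this SD. Taking the mean of a gene's rows could change EHMT2 only, the single member with several rows. The medians moved by less than 0.069 as well, but this SD describes single genes and is a wide bar for a median. The members' median of -0.047 ranged from -0.089 under median centring to -0.019 under repeated quantile scaling, and the SWI/SNF median of -0.049 from -0.091 to -0.0075. The count of members at least 1.2-fold lower, 4 as deposited, was 2 with the offset of 16 and 0 at 1.5-fold, and the count higher was 0 throughout. The offset shrinks the ratios of dimmer genes most, and 1.5-fold is a stricter threshold by construction. Over all genes, 641 were lower as deposited, 1084 under median centring and 275 with the offset. The number higher, 609 as deposited, was 329 centred, 331 under loess scaling, 372 under repeated quantile scaling, 186 among bright genes and 83 with the offset. Centring subtracts 0.042 from every ratio, and bright genes are a subset. For the loess and repeated quantile scalings the cause was not tested. CHD7 and SMARCA1 lay below the median level, where all genes had a median ratio of 0.065.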
